A study of Homo sapiens with 6 samples.

Results

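The genes described here are the matrix metalloproteinases (MMP), the disintegrin metalloproteinases (ADAM), their thrombospondin-repeat relatives (ADAMTS) and the tissue inhibitors of metalloproteinases (TIMP). They were picked by gene name, as protein-coding genes named MMP, ADAM or ADAMTS with a number, or TIMP1 to TIMP4. These families were chosen with earlier results of these data known. This gave 66 of the 58735 genes in the deposited tables, made up of 23 MMPs, 20 ADAMs, 19 ADAMTS proteases and 4 TIMPs. RNA was sequenced from A549, a human lung adenocarcinoma cell line kept in RPMI 1640 with 10% FBS, in 3 groups of 2 libraries. The WT group consisted of cells stably infected with a PLVX lentivirus for HOXB9, a homeobox transcription factor. The T133A group received the same kind of lentivirus with HOXB9 altered by T133A, in which alanine takes the place of a threonine, and the label of the KO group gives a HOXB9 knockout. Cells with an empty vector or without treatment were not analysed here. Nothing in the labels tells whether the endogenous HOXB9 of the WT and T133A cells was intact, whether a group was 1 clone, or whether its libraries are separate cultures. The p-values below therefore reflect only how these samples vary, which may be technical.

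MMPs are zinc-dependent enzymes that cut collagens, laminins, proteoglycans and many cell-surface proteins, and most are made as inactive precursors that must lose a propeptide. ADAMs are membrane proteins, several of which release the outer part of growth factors, cytokines and adhesion molecules from the cell surface, while ADAMTS proteases are secreted and act on proteoglycans, procollagens and blood proteins. TIMPs bind the active site of these enzymes and block it, and transcript levels do not show how much enzyme was active.

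Libraries held 16299059 to 18745432 counts. HOXB9 itself stood at 222 and 217 CPM in WT, 275 and 210 CPM in T133A and 14.5 and 15.4 CPM in KO, where CPM is the count scaled to library size with TMM factors. Its transcript was thus low but present in the libraries labelled KO, and WT and T133A overlapped. The epithelial keratins KRT8 and KRT18 made up most of the summed level of 5 epithelial markers, which was 5973 to 8683 CPM over the 6 libraries. EPCAM, another of these markers, was at 14.5 and 16.9 CPM in WT, 12.99 and 12.5 CPM in T133A and 1.94 and 1.72 CPM in KO. The 6 fibroblast markers summed to 40.2 to 42.1 CPM in WT and T133A and to 9.65 and 10.6 CPM in KO, with COL1A2 at no more than 0.112 CPM in any library. Nearly all of the KO sum was COL1A1, at 9.05 and 9.90 CPM there and 5.88 to 8.80 CPM in WT and T133A. COL3A1 was at 13.3 and 13.4 CPM in WT and 0.0607 and 0.0538 CPM in KO. The 5 haematopoietic markers summed to 5.34 to 13.2 CPM, nearly all from CD14, with PTPRC and CD3E at or near 0. The 3 endothelial markers summed to 1.695 and 0.558 CPM in WT, 2.13 and 2.23 CPM in T133A and 0.182 and 0.215 CPM in KO. In such bulk samples, fewer cells of a type and less RNA per cell cannot be told apart.

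Promoter sequences are shown for MMP7 and ADAM19, which had some of the largest fold changes among members reaching 5 CPM, and for MMP10, a neighbour of MMP7 that was hardly detected. MMP10 was chosen after its motif matches were seen. Each run is the 250 bases before the RefSeq start of the gene, read 5′ to 3′ on the reverse strand of GRCh38.p14, where capitals mark matches of either strand to AP-1 (TGANTCA), the TATA box (TATAAA) or an NF-kB motif. MMP7 comes from chr11:102530748-102530997, MMP10 from chr11:102780629-102780878 and ADAM19 from chr5:157575776-157576025. The files place the start of MMP7 6 bases further upstream than RefSeq.
MMP7: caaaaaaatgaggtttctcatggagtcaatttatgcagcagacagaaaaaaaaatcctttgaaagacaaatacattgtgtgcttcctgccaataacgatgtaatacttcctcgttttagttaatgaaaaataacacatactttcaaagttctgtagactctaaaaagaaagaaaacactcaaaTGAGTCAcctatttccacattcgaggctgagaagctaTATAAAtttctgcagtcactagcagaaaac
MMP10: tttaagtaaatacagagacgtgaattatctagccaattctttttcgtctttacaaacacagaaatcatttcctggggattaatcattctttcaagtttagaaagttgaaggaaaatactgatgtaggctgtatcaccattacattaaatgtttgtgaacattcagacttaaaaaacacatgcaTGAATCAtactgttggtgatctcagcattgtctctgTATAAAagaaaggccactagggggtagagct
ADAM19: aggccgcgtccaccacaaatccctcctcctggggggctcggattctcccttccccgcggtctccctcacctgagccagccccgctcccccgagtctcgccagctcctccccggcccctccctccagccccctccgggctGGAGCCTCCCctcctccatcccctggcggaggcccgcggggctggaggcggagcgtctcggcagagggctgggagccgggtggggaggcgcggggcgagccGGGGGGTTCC
The MMP7 window had an AP-1 match at bases -67 to -61 and a TATA box at -30 to -25, counted back from the start. The MMP10 window had the same arrangement, with an AP-1 match at -67 to -61 and a TATA box at -31 to -26. ADAM19 had neither, and held NF-kB matches at -111 to -102 and -10 to -1. The windows also differed in base composition, with 33.6% G and C in MMP7, 34.4% in MMP10 and 76.4% in ADAM19. Among 27305 RefSeq promoter windows of the same length, 6.60% held the AP-1 motif, 11.13% the TATAAA string, 9.57% the NF-kB motif and 4.49% the homeodomain core TAATTA. Of the 66 genes, 39 matched a promoter entry, and 4 of these held AP-1, 7 the TATAAA string, 4 NF-kB and 6 the homeodomain core. Only 21 of the 39 tested members were among these entries, and the homeodomain core was in 0 of those 21, its 6 genes being the untested ADAM20, ADAM29, ADAMTS17, MMP8, MMP20 and MMP27. The TATAAA string was in MMP7 and ADAMTS10 among the tested members and in MMP8, MMP10, MMP20, MMP21 and MMP26 among the others. It began 28 to 31 bases before the start in MMP7, MMP10 and MMP26, and 72 to 110 bases before it in the rest. In ADAMTS10 it was on the opposite strand. The AP-1 matches were in MMP7, MMP10, MMP20 and ADAMTS12, and the NF-kB matches in ADAM10, ADAM17, ADAM19 and ADAMTS3. A match is a string of letters and does not show that a factor binds there.

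Of the 66 genes, 39 passed the low-count filter and were tested, 12 each of the MMPs, ADAMs and ADAMTS proteases and 3 of the TIMPs. Per kilobase of gene length, the scale on which genes can be compared, the most abundant members in WT were TIMP1 at 129.0 CPM per kb, MMP7 at 72.6, ADAM9 at 68.3 and TIMP2 at 33.7 (means of 2 libraries). In T133A the order was MMP7 at 207, TIMP1 at 145, ADAM9 at 59.7 and TIMP2 at 47.7 CPM per kb. In KO it was TIMP1 at 106, ADAM9 at 50.6, TIMP2 at 29.9 and MMP7 at 22.2 CPM per kb. MMP7 therefore moved from the second place in WT to the first in T133A and the fourth in KO.

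**Figure D1:**
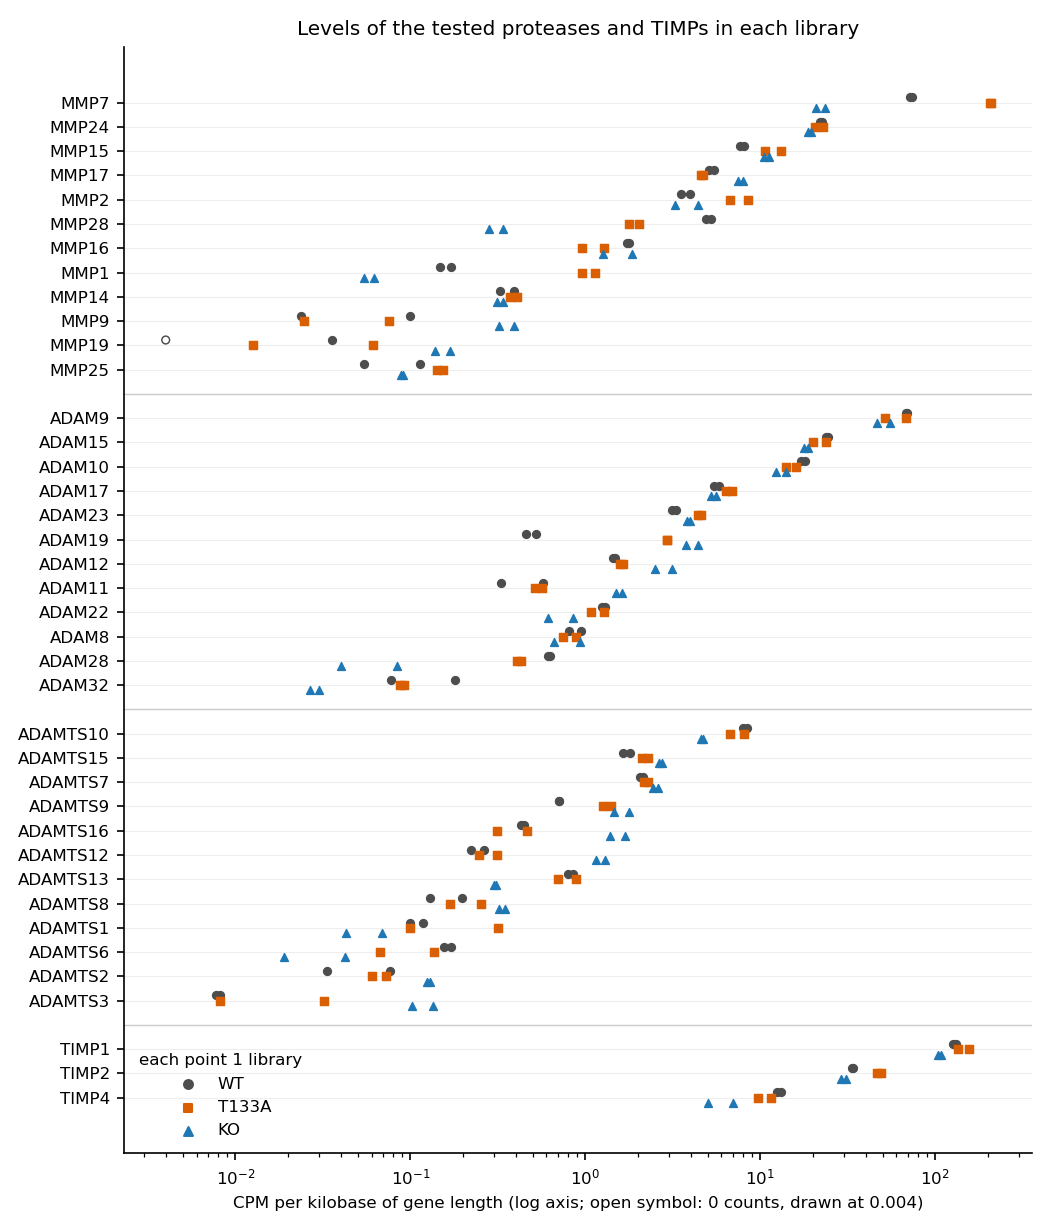
Level of each of the 39 tested genes in each library, in CPM per kb of gene length on a log axis, grouped by family; each point is 1 library of WT, T133A or KO, and the open symbol marks 0 counts (drawn at 0.004). MMP7 runs from 20.9 to 207 CPM per kb, and its groups do not overlap.

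Summed over each family's members, the MMP level was 118 and 121 CPM per kb in WT, 260.5 and 255 in T133A, with 64.3 and 69.25 in KO. MMP7 supplied 60.4% and 60.9% of that sum in WT, 79.2% and 81.4% in T133A, with 32.6% and 33.9% in KO. Without MMP7, the MMP sum was 46.8 and 47.5 CPM per kb in WT, 54.15 and 47.5 in T133A, with 43.35 and 45.8 in KO. The ADAM sum was 124 and 125 CPM per kb in WT, 108 and 122 in T133A, with 106 and 96.4 in KO. ADAMTS proteases summed to 14.6 to 16.1 CPM per kb in the 6 libraries, with the groups overlapping. TIMPs summed to 173 and 178 CPM per kb in WT, 216 and 191 in T133A, with 137 and 146 in KO, and these groups did not overlap.

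**Figure D2:**
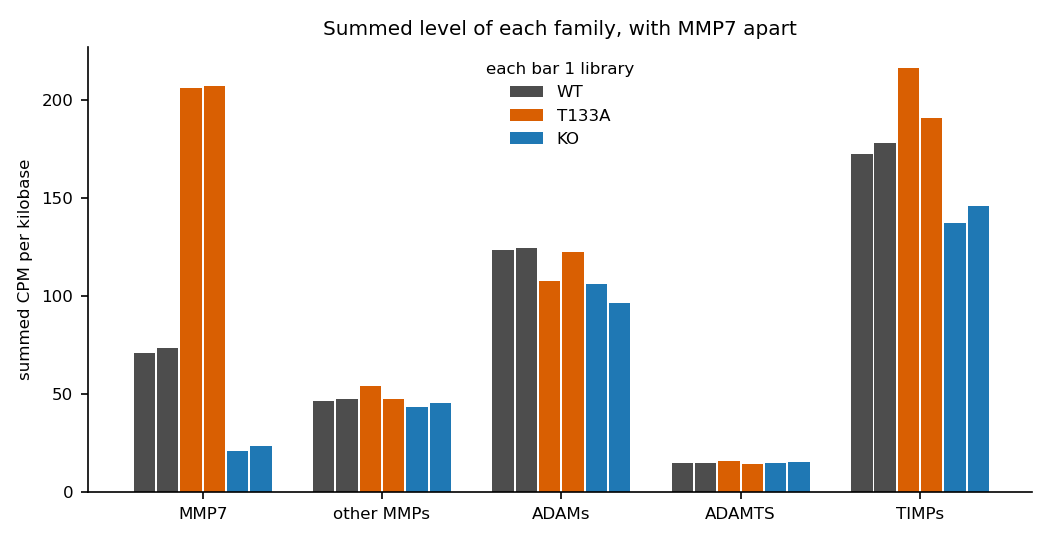
Summed level of each family in each library, in CPM per kb of gene length, with MMP7 apart from the other MMPs; each bar is 1 library. MMP7 runs from 20.9 in KO to 207 in T133A, while the other MMPs together lie between 43.35 and 54.15 and the ADAMTS proteases between 14.6 and 16.1.

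The comparison of T133A with WT asks which protease transcripts differ between cells given the altered and the unaltered HOXB9. MMP7, MMP1, MMP2 and MMP15, the proteases ADAM19 and ADAMTS9, the non-enzymatic ADAM23 and the inhibitor TIMP2 were higher in T133A, and MMP28 and MMP16 were lower. Thus 8 of the 39 tested members were called higher, beside 5.58% of all genes tested, and 2 were called lower, beside 3.97% (edgeR's quasi-likelihood test, adjusted p under 0.05). The median log2 fold change of the 39 was 0.147, against 0.004 over all genes. Of all calls in this comparison 58.5% were higher in T133A, and 45.0% with total count scaling. The 29 members without a call ranged from -0.68 to 1.25 on the log2 scale.

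The comparison of KO with WT sets cells labelled as a HOXB9 knockout against cells given a HOXB9 lentivirus. Effects of the knockout and of the lentivirus cannot be told apart in it. Members moved both ways in similar number. Called higher in KO were 12 of the 39 members, beside 23.6% of all genes, and 13 were called lower, beside 23.0%. Those higher were MMP9, MMP15, MMP17, MMP19, ADAM11, ADAM12, ADAM19, ADAMTS3, ADAMTS9, ADAMTS12, ADAMTS15 and ADAMTS16. Those lower were MMP7, MMP28, ADAM9, ADAM10, ADAM15, ADAM22, ADAM28, ADAM32, ADAMTS6, ADAMTS10, ADAMTS13, TIMP1 and TIMP4. The median log2 fold change of the 39 was -0.135, against 0.001 over all genes. Of all calls here 50.7% were higher in KO, and 66.6% with offsets for GC content and length. With those offsets centred on each library's median the share was 52.3%. Of the 5 epithelial markers, EPCAM (log2 fold change -3.10) and CDH1 (-0.88) were lower in KO than in WT, while KRT8 (-0.28), KRT18 (-0.28) and KRT19 (0.08) did not pass. Of the 4 fibroblast markers tested, COL3A1 (-7.70), LUM (-6.50) and DCN (-6.70) were lower in KO and COL1A1 was higher (0.57, adjusted p = 0.0255). The endothelial marker PECAM1 was lower in KO (-4.45), with 20 and 7 counts in WT and 1 and 0 in KO. The haematopoietic marker CD14 did not pass (-0.22). The part of these marker differences in the members' values was not tested.

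T133A and KO differed in 24 of the 39 members, beside 39.9% of all genes. In T133A, 15 were called higher, beside 20.3% of all genes, and 9 lower, beside 19.6%, with a median log2 fold change of 0.21 against -0.01 over all genes. Of all calls 50.9% were higher in T133A, 33.9% with the same offsets uncentred and 52.2% with them centred. Among the epithelial markers EPCAM (log2 fold change 2.80), CDH1 (0.88) and KRT18 (0.31) were higher in T133A and KRT19 lower (-0.39). COL3A1 (7.29), LUM (6.61) and DCN (6.29) were higher in T133A while COL1A1 did not pass (-0.37). PECAM1 was higher in T133A (5.57) and CD14 did not pass (0.56). Every SE given below is that of the log2 fold change. The 3 comparisons share their libraries in pairs, so their values are given side by side below and no overlap between them is read as a result. In all, 32 of the 39 members were called in at least 1 comparison, beside 54.7% of all genes, and 3 (MMP7, MMP28 and ADAM19) in all 3 of them, beside 4.16%.

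**Figure D3:**
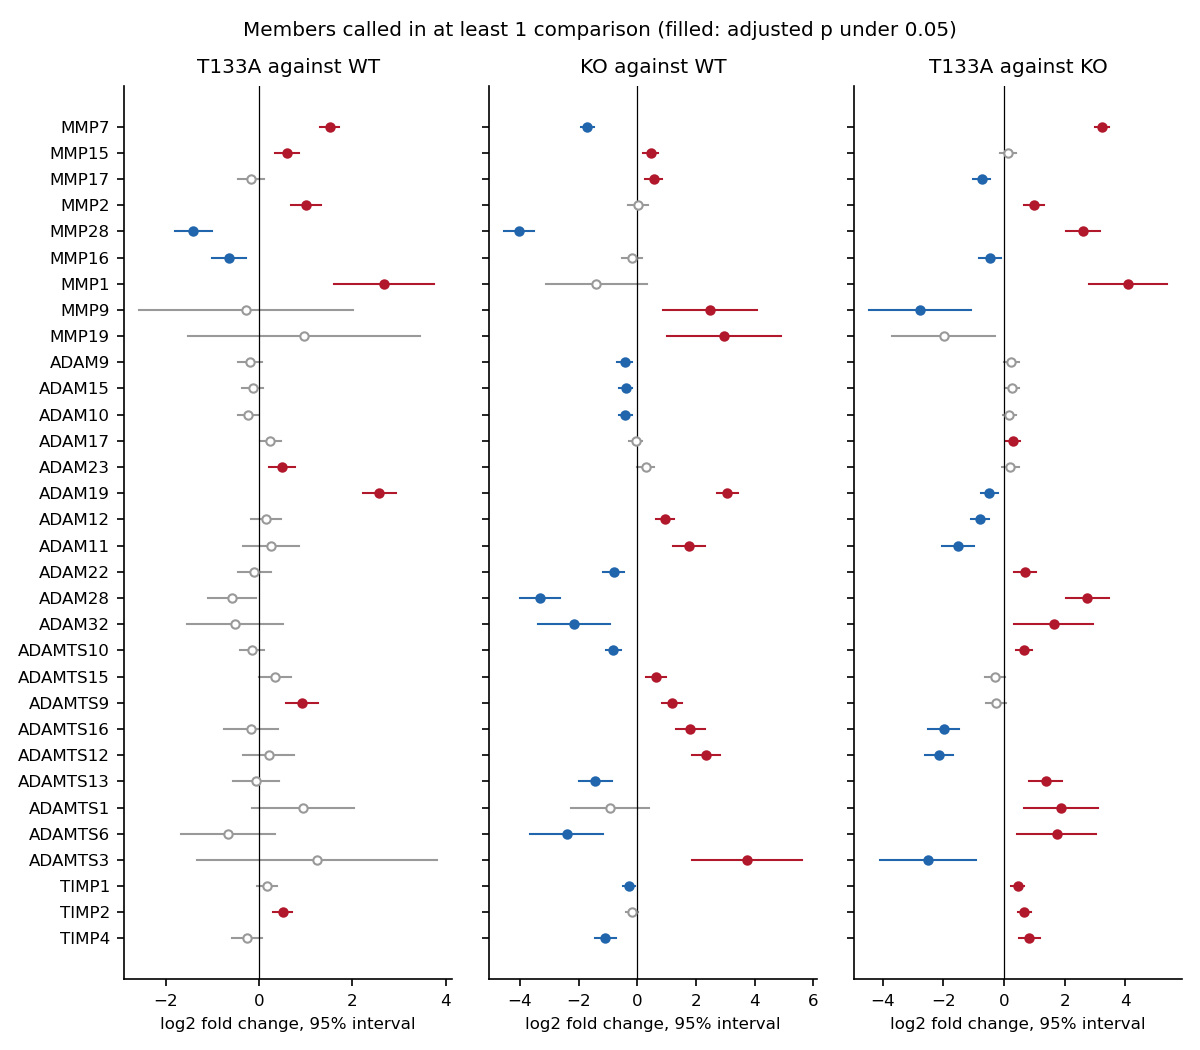
Log2 fold change of the 32 genes called in at least 1 comparison, in the 3 comparisons, with the 95% interval of edgeR's quasi-likelihood fit; filled points passed an adjusted p of 0.05, red where higher and blue where lower in the group named first, and the vertical line marks no difference. MMP7 lies at 1.51 in T133A against WT and at -1.71 in KO against WT, while ADAM19 lies at 2.58 and 3.07.

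MMP7, also called matrilysin, is a small secreted protease of epithelial cells. It was at 166 and 172 CPM in WT, 479 and 482 CPM in T133A and 48.6 and 54.5 CPM in KO. The libraries of each group were close together and the 3 groups were far apart, with T133A highest and KO lowest. MMP7 (ENSG00000137673, chromosome 11, 102520508 to 102530753, reverse strand) rose 2.85-fold in T133A over WT (log2 fold change 1.51, SE 0.101, adjusted p = 2.14e-10) and fell by 1.71 on the log2 scale in KO (SE 0.105, adjusted p = 9.05e-12). Between T133A and KO the difference was 9.31-fold (log2 fold change 3.22, SE 0.11, adjusted p = 1.61e-16).

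MMP1, the interstitial collagenase that cuts fibrillar collagens, lies in the same stretch of chromosome 11 (102789920 to 102798160, reverse strand) but was far scarcer. Its counts were 5 and 6 for WT, 39 and 32 for T133A, and 2 and 2 for KO, which is 0.292 and 0.335, 2.24 and 1.88, and 0.121 and 0.108 CPM. T133A stood above the other groups in both libraries. The rise over WT was 2.69 on the log2 scale (SE 0.517, adjusted p = 0.0012), while KO against WT was -1.40 (SE 0.83, adjusted p = 0.173). T133A and KO differed by a ratio of 18.1 (71 against 4 counts, exact 95% counting interval 6.76 to 68.2, adjusted p = 1.45e-05). Such intervals cover counting error only.

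These genes belong to a run of 9 MMP genes on the long arm of chromosome 11, within 422.5 kb of MMP7 by their lower-coordinate ends. Going outward from MMP7 these are MMP20, MMP27, MMP8, MMP10, MMP1, MMP3, MMP12 and MMP13. Only MMP7 and MMP1 reached the filter. MMP10 (stromelysin-2), 250 kb from MMP7, had counts of 3 and 4 for WT, 5 and 6 for T133A, and 0 and 3 for KO. Those of MMP13, a collagenase, were 4 and 7 for WT, 4 and 7 for T133A, and 0 and 1 for KO. MMP3, MMP12 and MMP20 had at most 1 count in any library, and MMP8 and MMP27 had none. These 7 genes were too rarely counted to be tested, where 3 counts correspond to 0.160 to 0.184 CPM in these libraries.

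**Figure D4:**
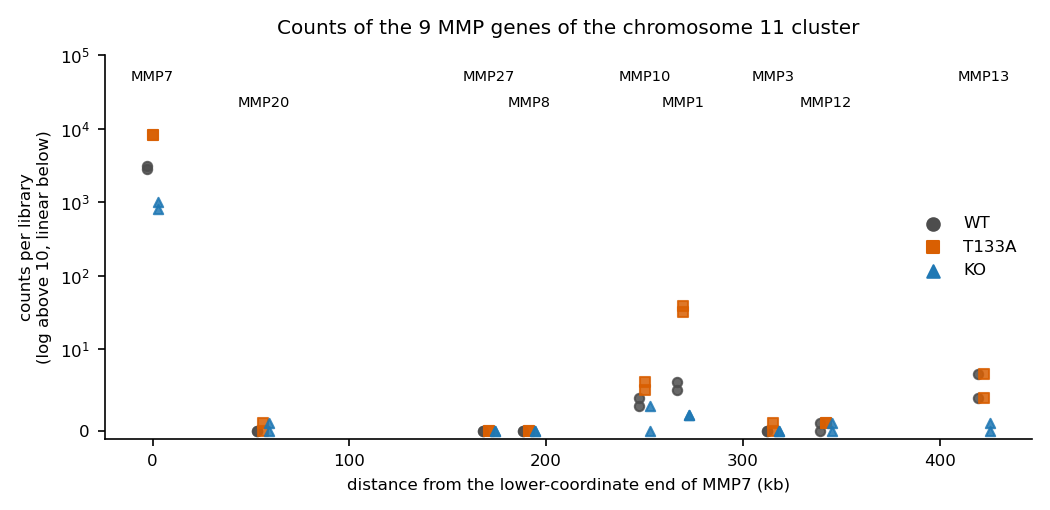
Counts of the 9 MMP genes of the chromosome 11 run in each library, on an axis that is log above 10 and linear below, plotted by distance from the lower-coordinate end of MMP7 in kb; each point is 1 library. MMP7 has 801 to 8338 counts, MMP1 up to 39, and each other gene at most 7.

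MMP2, gelatinase A, cuts denatured collagen and type IV collagen. It was at 17.5 and 19.6 CPM in WT, 41.7 and 32.9 CPM in T133A and 16.03 and 21.6 CPM in KO. Both T133A libraries lay above the other 4, and KO overlapped WT. The rise in T133A was 2.01-fold over WT (log2 fold change 1.01, SE 0.156, adjusted p = 0.000103) and 1.98-fold over KO (0.98, SE 0.156, adjusted p = 2.56e-05), with KO against WT at 0.02 (95% interval -0.31 to 0.36).

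MMP28, or epilysin, is a secreted MMP of epithelial tissues on chromosome 17 and was the member with the steepest fall. It was at 13.9 and 14.9 CPM in WT, 5.81 and 5.06 CPM in T133A and 0.971 and 0.807 CPM in KO. All 3 groups were apart, in the order WT, T133A, KO. It fell by 1.41 on the log2 scale in T133A (SE 0.19, adjusted p = 1.58e-05) and by 4.02 in KO (SE 0.247, adjusted p = 9.05e-12), and T133A exceeded KO 6.10-fold (SE 0.27, adjusted p = 6.24e-08).

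MMP9, gelatinase B, and MMP19 were rare in every group and highest in KO. MMP9 was at 0.234 and 0.0558 CPM in WT, 0.0575 and 0.176 CPM in T133A and 0.910 and 0.753 CPM in KO. Its log2 difference was 2.48 for KO against WT (SE 0.777, adjusted p = 0.012). KO had 29 counts against 4 in T133A, a ratio of 7.11 (exact 95% counting interval 2.499 to 27.9, adjusted p = 0.00916). MMP19 was at 0 and 0.167 CPM in WT, 0.287 and 0.0588 CPM in T133A and 0.789 and 0.646 CPM in KO. With 25 counts in KO against 3 in WT, its ratio was 8.33 (interval 2.54 to 43.1, adjusted p = 0.0124). T133A against KO did not pass for MMP19 (log2 fold change -1.99, SE 0.82, adjusted p = 0.0572). Both calls against WT were lost in DESeq2 (adjusted p = 0.0671 for MMP9 and 0.0561 for MMP19) and without either KO library. That of MMP9 was also lost without WT replicate 2 (adjusted p = 0.185), and that of MMP19 without WT replicate 1 (0.166). The MMP9 call between KO and T133A was lost in DESeq2 (adjusted p = 0.052), without either KO library (0.071 and 0.0513) and without T133A replicate 1 (0.109). MMP9 shares 18.4% of its exon bases with an antisense gene and MMP19 shares 17.4% with TMEM198B (55 to 171 counts), and with the counting's strand setting unstated, reads of such pairs cannot be told apart.

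Membrane-anchored MMPs were called in both directions. MMP15 (MT2-MMP) was at 33.9 and 35.8 CPM in WT, 57.7 and 47.1 CPM in T133A and 46.1 and 49.8 CPM in KO, with WT below all other libraries. It rose by 0.59 on the log2 scale in T133A (SE 0.124, adjusted p = 0.00288) and by 0.46 in KO (SE 0.125, adjusted p = 0.0042). Both calls were lost without WT replicate 1 (adjusted p = 0.0653 and 0.0601). MMP17 (MT4-MMP), which is held in the membrane by a lipid anchor, was at 20.5 and 21.7 CPM in WT, 18.9 and 18.3 CPM in T133A and 29.9 and 32.0 CPM in KO. KO stood above the rest, by 0.55 on the log2 scale over WT (SE 0.132, adjusted p = 0.00157), and T133A was lower than KO by 0.73 (log2 fold change -0.73, SE 0.134, adjusted p = 0.000131). With centred offsets for GC content and length, MMP17 was at 0.26 for KO against WT (adjusted p = 0.0594) and -0.39 for T133A against KO (0.00768), and MMP15 at 0.19 for KO against WT (0.0853). MMP16 (MT3-MMP) was at 21.4 and 20.9 CPM in WT, 11.6 and 15.5 CPM in T133A and 22.3 and 15.3 CPM in KO. KO replicate 1 was above both WT libraries and KO replicate 2 below T133A replicate 2, so KO overlapped both other groups. The call against WT (log2 fold change -0.65, SE 0.175, adjusted p = 0.0192) was lost without T133A replicate 1 (adjusted p = 0.137) and without WT replicate 1 (0.0615), and the value was -0.41 with offsets for GC content and length (0.0318). The call against KO (-0.47, SE 0.176, adjusted p = 0.0371) was lost in DESeq2 (0.0747), without KO replicate 1 (0.449) and without T133A replicate 1 (0.283).

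The other 3 membrane MMPs were called in no comparison, although MMP24 passed with other settings. MMP14 (MT1-MMP), an activator of MMP2, was at 1.40 to 1.82 CPM in all 6 libraries, with log2 fold changes of -0.13 to 0.26. MMP24 (MT5-MMP) was at 83.0 to 100.4 CPM, and its KO libraries (83.0 and 85.8 CPM) were below the others (90.5 to 100.4 CPM), with a log2 fold change against WT of -0.22 (SE 0.104, adjusted p = 0.0902). That value passed, among other settings, with total count scaling (adjusted p = 0.0354) and with only the compared groups in the fit (0.0294). With offsets for GC content and length it was -0.31 (adjusted p = 0.00153), and -0.46 when centred (2.49e-05). The MMP24 value for T133A against KO, 0.18 without a call (0.186), was 0.22 with these offsets (0.0205) and 0.38 when centred (0.000272). MMP24 shares 18.1% of its exon bases with MMP24OS on the opposite strand, which had 582 to 1176 counts. MMP25 (MT6-MMP) was at 0.223 to 0.632 CPM and shares 35.2% of its exon bases with MMP25-AS1.

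Among the ADAMs with protease activity, ADAM19 (meltrin beta) was called in all 3 comparisons. It was at 3.51 and 4.01 CPM in WT, 22.7 and 22.5 CPM in T133A and 29.1 and 34.0 CPM in KO. WT was far below the other groups, which did not overlap each other. ADAM19 (ENSG00000135074, chromosome 5, 157395534 to 157575775, reverse strand) rose 5.99-fold in T133A (log2 fold change 2.58, SE 0.17, adjusted p = 1.62e-10) and 8.37-fold in KO (3.07, SE 0.168, adjusted p = 1.09e-12). T133A was lower than KO (-0.48, SE 0.139, adjusted p = 0.00781), a call lost without KO replicate 2 (adjusted p = 0.106).

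ADAM12 (meltrin alpha), known from muscle and tumours, was at 14.2 and 14.6 CPM in WT, 16.3 and 15.6 CPM in T133A and 30.8 and 24.6 CPM in KO. KO stood alone, 1.92-fold over WT (log2 fold change 0.94, SE 0.147, adjusted p = 1.76e-05), and 1.74-fold over T133A (SE 0.146, adjusted p = 0.000143). T133A against WT was 0.15 (95% interval -0.17 to 0.46). ADAM28, an ADAM with roles in lymphocytes and epithelial tumours, was at 5.73 and 5.86 CPM in WT, 3.79 and 3.998 CPM in T133A and 0.789 and 0.377 CPM in KO. It fell by 3.32 on the log2 scale in KO (SE 0.332, adjusted p = 2.89e-08), and T133A exceeded KO 6.73-fold (SE 0.346, adjusted p = 1.18e-06), while T133A against WT did not pass (-0.57, SE 0.248, adjusted p = 0.165).

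The abundant ADAM9, ADAM10 and ADAM15 were each lower in KO than in WT, by 0.40 to 0.44 on the log2 scale. ADAM9, a membrane protease found in many tissues, was at 470 and 476 CPM in WT, 355 and 470 CPM in T133A and 380 and 319 CPM in KO, and KO lay below WT without overlap (log2 fold change -0.44, SE 0.12, adjusted p = 0.00512). ADAM10, the main sheddase of Notch receptors and cadherins, was at 293 and 275 CPM in WT, 226 and 257 CPM in T133A and 228 and 199 CPM in KO. Here too WT lay above KO, at a log2 fold change of -0.41 (SE 0.106, adjusted p = 0.00292). ADAM15 was at 156 and 160 CPM in WT, 156 and 131 CPM in T133A and 117 and 124 CPM in KO, with -0.40 for KO against WT (SE 0.107, adjusted p = 0.00406). Of these 3, ADAM10 lost its call without WT replicate 1 (adjusted p = 0.0679), ADAM9 without KO replicate 2 (0.0725) and ADAM15 without WT replicate 2 (0.056). With offsets for GC content and length, ADAM10 turned to 0.07 and ADAM9 went to -0.10 for KO against WT, on a scale where the median of all genes had moved by 0.17. With those offsets centred on each library's median, ADAM10 was at -0.08 (adjusted p = 0.392), ADAM9 at -0.25 (0.016) and ADAM15 at -0.65 (1.76e-07).

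ADAM17, which releases TNF and ligands of the EGF receptor, was at 58.4 and 62.1 CPM in WT, 74.2 and 68.3 CPM in T133A and 60.1 and 56.1 CPM in KO. T133A lay above the other groups, by 0.29 on the log2 scale over KO (SE 0.11, adjusted p = 0.0367) and by 0.24 over WT, which did not pass (SE 0.11, adjusted p = 0.188). With offsets for GC content and length the value over WT was 0.44 and passed (adjusted p = 0.00614; 0.00553 with centred offsets), and KO against WT went from -0.05 to 0.37 (adjusted p = 0.00506; 0.22 and 0.0874 with centred offsets). Under the same offsets the value over KO was 0.065 (adjusted p = 0.63), and 0.23 when centred (0.0849). The call against KO was also lost with the replicate block (0.081), total count scaling (0.0569), no low-count filter (0.102), only the compared groups in the fit (0.0758) and on leaving out any 1 of 5 libraries, all but T133A replicate 2 (0.0621 to 0.142). IAH1, with 568 to 677 counts, overlaps 12.3% of the exon bases of ADAM17. ADAM8, an ADAM of leukocytes and tumour cells, was at 3.17 to 4.50 CPM and passed no test.

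The ADAMs that lack a working catalytic site serve as adhesion or receptor proteins, and ADAM11, ADAM22 and ADAM23 are best known in the nervous system. ADAM11 was at 1.58 and 2.73 CPM in WT, 2.70 and 2.47 CPM in T133A and 7.10 and 7.70 CPM in KO. Only KO stood apart, 3.42-fold over WT (log2 fold change 1.77, SE 0.261, adjusted p = 8.49e-06) and 2.86-fold over T133A (SE 0.255, adjusted p = 5.38e-05). ADAM22 was at 15.7 and 15.1 CPM in WT, 13.1 and 15.6 CPM in T133A and 10.3 and 7.43 CPM in KO. It went the other way, with KO below WT by 0.80 (log2 fold change -0.80, SE 0.176, adjusted p = 0.000738). This value was -0.40 with offsets for GC content and length (adjusted p = 0.022) and -0.55 when these were centred (0.0031). T133A exceeded KO 1.62-fold (SE 0.177, adjusted p = 0.00302), a call lost without KO replicate 2 (adjusted p = 0.0745). ADAM23 was at 19.99 and 21.1 CPM in WT, 28.3 and 29.5 CPM in T133A and 24.4 and 25.5 CPM in KO. Its groups did not overlap, and the rise in T133A (0.49, SE 0.132, adjusted p = 0.0189) was lost without WT replicate 1 (adjusted p = 0.272) or WT replicate 2 (0.148) and with total count scaling (0.0519). KO against WT, which had not passed, did so at 0.49 with offsets for GC content and length (adjusted p = 0.000582) and at 0.34 when these were centred (0.0122). ADAM32, a rarely counted relative, was at 1.81 and 0.781 CPM in WT, 0.920 and 0.882 CPM in T133A and 0.303 and 0.269 CPM in KO. Its log2 fold change for KO against WT was -2.15 (SE 0.595, adjusted p = 0.00512), and this was lost without WT replicate 1 (0.206). T133A against KO was 1.63 (SE 0.625, adjusted p = 0.0412), which was lost in DESeq2 (0.101), limma-voom (0.0571), with total count scaling (0.0536), no low-count filter (0.0514) or offsets for GC content and length (0.0681), and on leaving out any 1 of 5 libraries (0.0652 to 0.164).

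Among the ADAMTS proteases, 8 of 12 tested differed between KO and WT, beside 46.6% of all genes, and 1, ADAMTS9, between T133A and WT, beside 9.55%. ADAMTS9, which cuts the proteoglycans versican and aggrecan, was at 7.54 and 7.58 CPM in WT, 15.1 and 13.5 CPM in T133A and 15.5 and 18.9 CPM in KO. WT was below T133A (log2 fold change 0.92, SE 0.169, adjusted p = 0.000772) and below KO (1.19, SE 0.167, adjusted p = 4.68e-06), and T133A against KO was -0.27 (95% interval -0.60 to 0.06). The other 4 ADAMTS genes that were higher in KO than in WT did not pass between T133A and WT. ADAMTS12, a protease that can cut cartilage oligomeric matrix protein, was at 2.16 and 2.56 CPM in WT, 3.05 and 2.41 CPM in T133A and 11.3 and 12.7 CPM in KO. KO exceeded WT 5.05-fold (log2 fold change 2.34, SE 0.226, adjusted p = 1.73e-08) and T133A was lower than KO (-2.13, SE 0.222, adjusted p = 6.66e-08). ADAMTS16 was at 2.63 and 2.51 CPM in WT, 1.84 and 2.71 CPM in T133A and 8.13 and 9.90 CPM in KO, 3.51-fold over WT (SE 0.241, adjusted p = 2.14e-06) and 3.97-fold over T133A (SE 0.246, adjusted p = 8.97e-07). ADAMTS15, a protease of aggrecan and versican, was at 9.35 and 10.3 CPM in WT, 11.96 and 12.9 CPM in T133A and 14.9 and 15.5 CPM in KO. Its T133A libraries lay between the other groups, and the rise in KO was 1.55-fold (SE 0.159, adjusted p = 0.00237; 0.0505 without WT replicate 1), or 0.40 on the log2 scale with centred offsets for GC content and length (adjusted p = 0.0272). ADAMTS3, a procollagen protease that also processes the lymphatic growth factor VEGFC, was at 0.0585 and 0.0558 CPM in WT, 0.230 and 0.0588 CPM in T133A and 0.728 and 0.969 CPM in KO. That is 30 counts in KO against 2 in WT, a ratio of 15.0 (exact 95% counting interval 3.81 to 129.5, adjusted p = 0.0017), and the log2 fold change of T133A against KO was -2.50 (SE 0.762, adjusted p = 0.0118; 0.0736 in DESeq2, 0.127 without KO replicate 2 and 0.165 without T133A replicate 2).

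The ADAMTS genes that were lower in KO were ADAMTS10, ADAMTS13 and ADAMTS6. ADAMTS10, which associates with fibrillin microfibrils, was at 47.9 and 45.7 CPM in WT, 46.2 and 38.0 CPM in T133A and 27.0 and 26.1 CPM in KO. Its KO libraries were below all others (log2 fold change -0.82, SE 0.127, adjusted p = 1.71e-05 against WT), and T133A exceeded KO 1.59-fold (adjusted p = 0.000228). ADAMTS13, the protease of von Willebrand factor, was at 4.85 and 4.57 CPM in WT, 3.97 and 5.06 CPM in T133A and 1.76 and 1.72 CPM in KO. WT and T133A overlapped, and KO was lower than WT by 1.43 (log2 fold change -1.43, SE 0.268, adjusted p = 0.000143) and than T133A 2.58-fold (SE 0.27, adjusted p = 0.000299). ADAMTS6 was at 1.46 and 1.34 CPM in WT, 0.575 and 1.18 CPM in T133A and 0.364 and 0.162 CPM in KO, with -2.41 for KO against WT (SE 0.594, adjusted p = 0.00207). Its T133A value against KO (1.73, SE 0.634, adjusted p = 0.0333) was lost without KO replicate 2 (adjusted p = 0.228), without T133A replicate 2 (0.332), in DESeq2 (0.0821) and with offsets for GC content and length (0.0508). ADAMTS1, a protease of versican and aggrecan, was at 0.701 and 0.837 CPM in WT, 2.24 and 0.706 CPM in T133A and 0.303 and 0.484 CPM in KO. T133A replicate 1 was above every other library, and the T133A value against KO (1.87, SE 0.587, adjusted p = 0.0138) was 0.84 without it (adjusted p = 0.451) and was also lost without KO replicate 1 (0.11). ADAMTS2, ADAMTS7 and ADAMTS8 passed no test, with ADAMTS7 at 15.96 to 20.1 CPM, ADAMTS8 at 0.585 to 1.58 CPM and the procollagen protease ADAMTS2 at 0.292 to 1.13 CPM.

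All 3 tested TIMPs were higher in T133A than in KO, beside 20.3% of all genes. TIMP1, which inhibits most secreted MMPs, was at 194 and 204 CPM in WT, 240 and 208 CPM in T133A and 159 and 166 CPM in KO. Its KO libraries were lowest, and T133A exceeded KO 1.38-fold (log2 fold change 0.46, SE 0.103, adjusted p = 0.00106). The value for KO against WT (-0.29, SE 0.103, adjusted p = 0.0256) was lost without WT replicate 1 (adjusted p = 0.118), WT replicate 2 (0.221) or KO replicate 1 (0.0992), with the replicate block (0.0565) and with no low-count filter (0.0551). With centred offsets for GC content and length it was -0.53 (adjusted p = 3.4e-06), and T133A against KO 0.71 (5.46e-08). TIMP2, which inhibits MMPs and also takes part in the activation of MMP2, was at 190 and 189 CPM in WT, 275 and 262 CPM in T133A and 163 and 174 CPM in KO. T133A stood above the other groups, by 0.67 over KO (SE 0.0986, adjusted p = 9.54e-06) and by 0.50 over WT (SE 0.0983, adjusted p = 0.00138), the latter lost without WT replicate 1 (adjusted p = 0.0509) or WT replicate 2 (0.0573). TIMP4 was at 21.6 and 20.5 CPM in WT, 19.03 and 16.1 CPM in T133A and 8.26 and 11.5 CPM in KO. KO was lower than WT by 1.09 (log2 fold change -1.09, SE 0.166, adjusted p = 1.4e-05) and T133A exceeded KO 1.77-fold (SE 0.168, adjusted p = 0.000411). TIMP3, a matrix-bound inhibitor that also acts on ADAM17, had counts of 4 and 6 for WT, 10 and 5 for T133A, and 4 and 28 for KO, and was not tested.

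The other untested members were close to silent. No library held a count of ADAM2, ADAM7, ADAM18, ADAM30, ADAMTS5, MMP8 or MMP27. The remaining 20 untested members had a count in at least 1 library, and apart from TIMP3 the highest was 13, for ADAMTS17 in T133A replicate 1. ADAMTS18 had counts of 0 and 0 for WT, 0 and 8 for T133A, and 5 and 4 for KO, and ADAMTS14 had 0 to 7 counts. ADAM20, ADAM21, ADAM29 and ADAM33 had at most 8, and ADAMTS4, ADAMTS19, ADAMTS20, MMP3, MMP12, MMP20, MMP21, MMP23B and MMP26 at most 4. MMP11 (stromelysin-3) had 2 to 7 counts.

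Genes that act with these proteases were counted from 5 lists, and the values given for their genes are log2 fold changes. Among matrix proteins cut by MMPs or ADAMTS proteases, 11 of 20 tested were higher and 1 lower in T133A than in WT, 8 were higher and 8 lower in KO than in WT, and 10 were higher and 3 lower in T133A than in KO. The shares of all genes beside these and the other lists' counts are 5.58% higher and 3.97% lower for T133A against WT, 23.6% and 23.0% for KO against WT, and 20.3% and 19.6% for T133A against KO. The list's median log2 fold changes in these comparisons were 0.448, 0.365 and 0.321, beside 0.004, 0.001 and -0.01 over all genes, which are the values to set beside each list's medians. The laminin chain LAMB3 was higher in T133A than in WT by 2.11 on the log2 scale (SE 0.117, adjusted p = 9.76e-12), and tenascin TNC by 2.42 (SE 0.158, adjusted p = 1.4e-10). In KO against WT, the matrix-binding SPARC was at 2.93 (SE 0.156), fibronectin FN1 at -1.62 (SE 0.111) and nidogen NID2 at -2.66 (SE 0.191). COL1A1 is in this list and in the fibroblast marker list.

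Among other inhibitors, activators and inducers of these enzymes, 3 of 14 tested were higher in T133A than in WT (5.58% of all genes), namely the plasminogen activators PLAU (1.23, SE 0.104, adjusted p = 1.45e-08) and PLAT (1.66, SE 0.238, adjusted p = 3.81e-05) and the inhibitor TFPI2 (1.13, SE 0.0982, adjusted p = 2.43e-08). In KO against WT, 4 were higher and 6 lower (23.6% and 23.0% of all genes), with PLAU at 1.89 (SE 0.105), the proteoglycan SPOCK1 at 3.06 (SE 0.254) and the proprotein convertase PCSK5 at -2.46 (SE 0.189). In T133A against KO, 7 were higher and 3 lower. Called lower in T133A than in WT were 0 by edgeR, DESeq2 or limma-voom, with SPOCK3 alone at an unadjusted p under 0.05. Medians were 0.106 for T133A against WT, -0.135 for KO against WT and 0.536 for T133A against KO. Among partners of ADAM10 and ADAM17, 3 of 9 were higher in T133A than in WT (5.58% of all genes) and 6 of 9 in KO than in WT (23.6%), with medians of 0.29 and 0.394. By edgeR, DESeq2 and limma-voom 0 were lower in either, and 0 had an unadjusted p under 0.05 in that direction. RHBDF2, which brings ADAM17 to the cell surface, was higher by 0.84 in T133A (SE 0.113, adjusted p = 1.38e-05) and by 1.03 in KO (SE 0.112, adjusted p = 1.08e-07), and T133A and KO differed in TSPAN14 (0.40) and TSPAN17 (-0.43).

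Among transmembrane proteins that ADAMs can shed, 11 of 38 tested were higher and 2 lower in T133A than in WT (5.58% and 3.97% of all genes), and 15 were higher and 15 lower in KO than in WT (23.6% and 23.0%). T133A against KO gave 15 higher and 6 lower (20.3% and 19.6%). Medians in the 3 comparisons were 0.222, 0.233 and 0.107, beside 0.004, 0.001 and -0.01 over all genes. The adhesion molecule ICAM1 was at 4.62 in T133A against WT (SE 0.304, adjusted p = 1.62e-10), the proteoglycan SDC4 at 1.43 (SE 0.127) and the EGF receptor ligand EREG at 1.34 (SE 0.136). In KO against WT the growth factor NRG1 was at 2.03 (SE 0.114), EPCAM at -3.10 (SE 0.208) and the mucin MUC1 at -2.76 (SE 0.192). Among related metalloproteinases and ADAMTS-like proteins, 0 of 7 tested passed in T133A against WT by edgeR, DESeq2 or limma-voom, with TLL1 higher and ADAMTSL3 lower at an unadjusted p under 0.05. The procollagen proteases TLL1 and BMP1 and the microfibril protein ADAMTSL4 were lower in KO than in WT (-1.86, -0.50 and -0.77, SE 0.21, 0.114 and 0.285) and lower in KO than in T133A, and the list's medians were 0.23 for T133A against WT, -0.305 for KO against WT and 0.106 for T133A against KO.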

How the data were processed

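The authors deposited 1 table per library with raw read counts per gene, whole numbers without normalization, and FPKM values, which divide each count by gene length and library size. Per the submitters' processing notes, the tools were HISAT2 2.0.5 and featureCounts 1.5.0 on GRCh38. Neither the annotation release nor the strand setting was given in the sources used here. The deposited FPKM values were used only to check that their library size was 0.967 to 1.03 times the total count.

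Counts were tested with edgeR 4.0.16 (R 4.3.3; quasi-likelihood, robust, TMM scaling, filterByExpr defaults) in 1 fit of the 6 libraries with a group term alone, over 16340 genes, with a biological coefficient of variation of 8.96%. Two-sided p-values had Benjamini-Hochberg adjustment in each comparison, at a threshold of 0.05, and log2 fold changes are positive where the group named first is higher. The standard error is the log2 fold change divided by the root of its F statistic. The procedure was also run on simulated data with the same spread in all groups, and the outcome is not given here. Levels are CPM with TMM factors, divided by the files' gene length for levels per kb. Replicates varied beyond sampling noise, with a chi-square over its degrees of freedom of 2.46 in WT, 10.2 in T133A and 12.2 in KO. All groups shared 1 estimate of the spread in the fit. Over genes, replicate 1 minus replicate 2 correlated with GC content at -0.18 in WT, 0.5 in T133A and -0.286 in KO (Spearman). Genes of the mitochondrial genome held 7.84% to 8.92% of the counts in WT and T133A and 4.45% and 5.60% in KO.

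The genes and lists were chosen with earlier results of these data known. Every member called in a comparison is named with its values. Uncalled members are named by level and untested members by counts, and each companion list contributes up to 3 called genes per comparison by adjusted p. Positions are those of the files, which GENCODE 29 matches for all 66 genes. GENCODE 29 gave GC content and exon overlaps, and RefSeq (GRCh38.p14) gave promoters. No protein sequences were used here. Alternatives were RLE factors, total count scaling, DESeq2 1.42.0, limma-voom (limma 3.58.1), other low-count filters, only the compared groups, a replicate block, GC and length offsets, and leaving out each library. Centred offsets and a crossed block were chosen after seeing the data. The files were read with Python 3.11.15 and pandas 2.3.3.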

Additional observations from a re-analysis of the deposited data

How the results depend on the processing

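Of 59 member calls, all 59 kept their direction and call with RLE factors, 57 with the replicate block, 56 with total count scaling, 56 without a low-count filter, 58 in limma-voom and 52 in DESeq2. No setting changed a call of MMP7, MMP2 or MMP28. In the settings that tested them, the same held for MMP1, ADAM11, ADAM12, ADAM28, ADAMTS10, ADAMTS12, ADAMTS13, ADAMTS16 and TIMP4. Requiring a mean of 5 CPM left 23 members tested. Members higher in KO than in WT went from 12 to 7 and those lower in T133A than in KO from 9 to 4, and among the calls lost that of MMP16 was lost although the gene was still tested (adjusted p = 0.0659). Leaving out 1 library at a time gave 5 to 8 members higher and 1 to 4 lower in T133A than in WT, where the lone library of a group is assumed to vary like the others. Of these, 5 and 1 came without WT replicate 1, which ended the calls of ADAM23, MMP15, TIMP2 and MMP16, and 4 without T133A replicate 2, which added ADAM9 and ADAM10. The same omissions moved the calls over all genes from 1560 to 763 and 2579, and leaving out WT replicate 2 gave 840. The replicate block lost TIMP1 (KO against WT) and ADAM17 (T133A against KO) and left 8 higher and 2 lower for T133A against WT, 12 and 12 for KO against WT, and 14 and 9 for T133A against KO. Numbers are shared by label only: deviations of same-numbered libraries correlated at -0.0515 (T133A and WT), 0.023 (KO and WT) and -0.118 (T133A and KO). Crossing the numbers for T133A and KO gave 17 higher and 10 lower. Offsets for GC content and length, as planned, moved the median of all genes by 0.173 for KO against WT and to -0.156 for T133A against KO. They changed the share of calls that were higher from 50.7% to 66.6% and from 50.9% to 33.9%, and raised the calls of T133A against WT from 1560 to 2390. Under them, ADAM10 in KO against WT turned from -0.41 to 0.0719 (0.072 with the replicate block) and ADAM17 from -0.05 to 0.3721 (0.3719 with the block), and ADAM9 lost its call, as did ADAM17, ADAM32 and ADAMTS6 in T133A against KO. After this was seen, offsets centred on each library's median were added. The shares of calls that were higher were then 52.3% for KO against WT and 52.2% for T133A against KO. The medians of all genes were 0.022 and 0.003. For T133A against WT the share was 66.1%, beside 58.5% without offsets. With the centred offsets ADAM10 stayed below 0 and ADAM17 was at 0.2209 without a call in KO against WT, and 2460 genes were called in T133A against WT. They ended the calls of ADAM10, MMP15 and MMP17 in KO against WT, of ADAM17 in T133A against KO and, with the block, of MMP16 in T133A against WT, which left 1 lower. Calls were also gained, 9 with the planned offsets and 7 with the centred ones, apart from the turn of ADAM17 in KO against WT. ADAM17 in T133A against WT and ADAM23, MMP24 and TIMP2 in KO against WT gained a call with both. So did ADAM15, MMP15 and MMP24 in T133A against KO. The planned but not the centred offsets added ADAMTS9 and MMP19 in T133A against KO. MMP19 also gained that call in limma-voom (adjusted p = 0.0367), with only the compared groups in the fit (0.0271) and with the crossed block (0.0374). The cause of these changes was not tested. At this depth a count of 0 allows up to 0.160 to 0.184 CPM.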
